A study of Mus musculus with 59 samples.

Results

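The genes of LIF-STAT3 signalling were followed from mouse embryonic stem cells (ESCs), which are kept with LIF, to embryoid bodies (EBs), the aggregates that ESCs form without it. The 7 genes, *Lifr*, *Il6st*, *Stat3*, *Socs3*, *Bcl3*, *Pim1* and *Pim3*, were chosen by name, not by their values, and all 7 were found among the 24391 genes listed in each library. The 59 RNA-seq libraries come from 6 ESC lines that carry ERT2-Cre, a recombinase switched on by 4-hydroxytamoxifen (4-OHT). In every line, controls are cells without 4-OHT and mutants are cells with it. ESCs grew on mouse embryonic fibroblasts (MEFs) with LIF and the inhibitors SU5402, PD184352 and CHIR99021 (3i), and EBs were grown in suspension for 2 days without LIF and 3i, so that the stages differ in all of these and not in LIF alone. In the *Pcgf1* line, 4-OHT turns Pcgf1f/f into Pcgf1delta/delta (*Pcgf1*-KO), with 4 control ESC, 5 mutant ESC, 5 control EB and 5 mutant EB libraries. The other lines have 2 libraries in each of the 4 groups. The point-mutant line (Ring1A-pm;Ring1B-cpm in the plots) carries Ring1apm/pm in controls and mutants alike, and 4-OHT makes *Ring1B* pm/pm as well, which abolishes the catalytic activity of RING1A and RING1B. The *Ring1A/B* line lacks *Ring1A* in all its cells and loses floxed *Ring1B* with 4-OHT. The *Pcgf2/4*, *Pcgf3/5* and *Pcgf6* lines carry floxed *Pcgf2* and *Pcgf4*, *Pcgf3* and *Pcgf5*, and *Pcgf6*.

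LIF binds a receptor made of LIFR, which is specific to a few cytokines, and gp130, the product of *Il6st*, which the whole IL-6 family shares. Janus kinases bound to the receptor phosphorylate STAT3, which enters the nucleus and switches on target genes. In mouse ESCs this pathway sustains self-renewal. *Socs3* is a STAT3 target whose product inhibits the receptor and its kinases, *Bcl3* encodes an IκB family cofactor of NF-κB, and *Pim1* and *Pim3* encode serine/threonine kinases that are also regarded as STAT3 targets.

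The labels were checked against named genes. *Pcgf1* was at 7.30 to 16.6 TPM (a transcript level scaled for gene length and library total) in the control libraries of the *Pcgf1* line and at 0.627 to 2.77 TPM in its mutant libraries. The pluripotency gene *Pou5f1* was at 1027 TPM or more in all 27 libraries of the *Pcgf1* and point-mutant lines, and *Fgf5*, a marker of formative epiblast, was at 0.703 TPM or less in their ESCs and 2.91 TPM or more in their EBs. In the other 4 lines, the stage given by the label and that in the name of the deposited file differ in 14 of 32 libraries, and the whole condition in 21 of 32. There, only the 18 libraries whose label and file name give 1 stage entered the comparison of EBs with ESCs, and controls were not compared with mutants. In these 18, *Fgf5* was at 0.816 TPM or less in ESCs and 8.71 TPM or more in EBs. It was at 7.53 TPM or more in the libraries labelled ESC and named EB. In those labelled EB and named ESC it was at 0.791 TPM or less. *Fgf5* thus followed the stage of the file name. In the *Pcgf1* line, the headers give 3 library series, S05 (replicate 1), S07 (replicates 2 and 3) and S09 (replicates 4 and 5), and replicates 4 and 5 of a group stood closer to each other than other replicates, with a median absolute log2 difference of 0.078 to 0.111 over genes. No source says whether replicates were separate cultures, so *p*-values measure the spread between these libraries, which may be technical.

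The 3 genes with the largest fall in control EBs of the *Pcgf1* line, *Socs3*, *Bcl3* and *Stat3*, lie on mm9 at chr11:117827393-117831361, chr7:20393811-20408119 and chr11:100746412-100800854, all on the minus strand. The 250 bases before their RefSeq starts are shown 5′ to 3′ because they were searched for the STAT consensus TTCNNNGAA, which reads the same on both strands. The sequences are those of RefSeq (GRCm38.p6), and each matched the mm9 genome letter for letter at 1 place. The *Socs3* window, chr11:117830681-117830930, falls inside the longer *Socs3* gene of Gencode, where 77 of its bases are exonic and the rest intronic. The *Bcl3* window, chr7:20408105-20408354, shares its last 15 bases with an exon, and the *Stat3* window, chr11:100800855-100801104, lies outside any gene on that strand. Capitals mark the match in *Socs3*.
Socs3: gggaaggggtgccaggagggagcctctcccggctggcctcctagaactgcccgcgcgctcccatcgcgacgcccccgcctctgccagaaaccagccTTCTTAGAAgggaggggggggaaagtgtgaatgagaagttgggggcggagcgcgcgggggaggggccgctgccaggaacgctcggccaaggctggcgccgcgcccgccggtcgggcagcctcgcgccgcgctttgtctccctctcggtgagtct
Bcl3: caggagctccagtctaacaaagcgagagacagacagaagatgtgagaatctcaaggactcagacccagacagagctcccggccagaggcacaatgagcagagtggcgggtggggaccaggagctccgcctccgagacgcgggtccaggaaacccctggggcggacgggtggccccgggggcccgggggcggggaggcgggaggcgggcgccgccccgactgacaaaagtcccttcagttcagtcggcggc
Stat3: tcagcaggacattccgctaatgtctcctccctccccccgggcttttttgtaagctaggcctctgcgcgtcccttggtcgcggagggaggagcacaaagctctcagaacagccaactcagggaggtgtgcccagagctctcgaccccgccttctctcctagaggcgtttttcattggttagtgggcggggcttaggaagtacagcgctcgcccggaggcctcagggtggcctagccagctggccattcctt

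The match in *Socs3* begins at position -154 from the start. Of the 9 RefSeq promoters of the 7 genes (300 bases each, from 250 before to 50 after the start), it was the 1 with a match, and 8.3% of all 32851 promoters of that length hold one. These letters were not found in the *Bcl3* and *Stat3* windows. The windows hold 26 CpGs in *Socs3*, 19 in *Bcl3* and 13 in *Stat3*, against a median of 6 over all promoters.

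In control cells of the *Pcgf1* line, 6 of the 7 genes fell from ESC to EB. *Socs3* fell furthest, followed by *Bcl3* and *Stat3*, then by *Lifr*, *Pim3* and *Il6st*. The *Pim1* difference missed the threshold. Of all 20594 genes tested, 24.9% passed in either direction and 13.4% were lower (limma on log2(TPM + 0.1), Benjamini-Hochberg adjusted *p* under 0.05). The median log2 fold change was -1.85 over the 7 genes and -0.01 over all genes tested.

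*Lifr* encodes the receptor subunit that gives LIF its specificity. Its level in control ESCs was 23.8, 37.5, 42.2 and 22.3 TPM in replicates 1 to 4. In control EBs it was 5.72, 10.6, 4.94, 12.3 and 11.02 TPM in replicates 1 to 5. Every EB library was below every ESC library, and the log2 fold change was -1.85 ± 0.36 (SE, adjusted *p* = 0.000877). *Il6st*, the gene of gp130, was at 55.3, 101 (replicate 2), 123 and 52.4 TPM in control ESCs. In control EBs it was at 19.2, 30.4, 26.8, 39.3 and 33.0 TPM, again without overlap. Its log2 fold change was -1.42 ± 0.33 (adjusted *p* = 0.00358), and with libraries averaged within series the call was lost (-1.34, adjusted *p* = 0.0617). The ESC libraries of series S07 held the highest levels of both receptor genes, and within series the differences ran from -2.45 (S07) to -0.94 (S09) for *Lifr* and from -1.96 (S07) to -0.54 (S09) for *Il6st*.

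*Stat3*, the transcription factor of the pathway, was at 76.3, 131, 139 and 100.2 TPM in control ESCs. Control EBs held 8.54, 17.1, 14.7, 13.3 and 12.3 TPM. The groups were far apart, with a log2 fold change of -3.07 ± 0.28 (adjusted *p* = 5.36e-07). Within series it was between -3.15 and -2.96, a narrower range than for the receptor genes.

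*Socs3*, the feedback inhibitor, was at 79.7, 156 (replicate 2), 179.7 and 161 TPM in control ESCs. In control EBs it was at 2.54, 5.96, 3.75, 5.07 and 5.25 TPM. This was the largest fall of the 7, -4.96 ± 0.38 on the log2 scale (adjusted *p* = 5.97e-08), and 42 of the 20594 genes had a lower fold change. *Socs3* was also the 1 gene of the 7 on the study's Group 1 list, the genes at which RING1B binding increased from ESC to EB. *Bcl3* was at 29.5, 48.4, 53.2 and 53.1 TPM in control ESCs. Its levels in control EBs were 2.98, 3.16, 2.47, 4.41 and 7.30 TPM. Its log2 fold change was -3.54 ± 0.32 (adjusted *p* = 4.39e-07), and 183 genes had a lower one.

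The kinase genes were the most abundant of the 7 in both stages. *Pim3* ranged from 198 to 257 TPM in control ESCs and, without overlap, from 49.8 to 94.96 TPM in control EBs, with a log2 fold change of -1.70 ± 0.27 (adjusted *p* = 0.000139). *Pim1* was at 171, 369, 371 and 267 TPM in control ESCs. Its levels in control EBs were 89.4, 157, 141, 216 and 204 TPM. Replicate 1 of the ESCs lay among the EB libraries, and the log2 fold change of -0.87 ± 0.31 had an adjusted *p* of 0.0504. All 4 same-numbered pairs of libraries were lower in EBs, and *Pim1* passed when the replicate number was fitted as a block (-0.91 ± 0.16, adjusted *p* = 0.00034) or the library series was (adjusted *p* = 0.000117). It also passed with another scaling or a filter on mean TPM (adjusted *p* = 0.0234 to 0.0401) and without the ESC library of replicate 1 (-1.11, adjusted *p* = 0.0176), the EB library of replicate 4 (-0.99, adjusted *p* = 0.0349) or that of replicate 5 (-0.97, adjusted *p* = 0.0414). In the other alternatives it did not pass, with differences as small as -0.67 (without the EB library of replicate 1) and an adjusted *p* of up to 0.228 (libraries averaged within series).

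**Figure D1:**
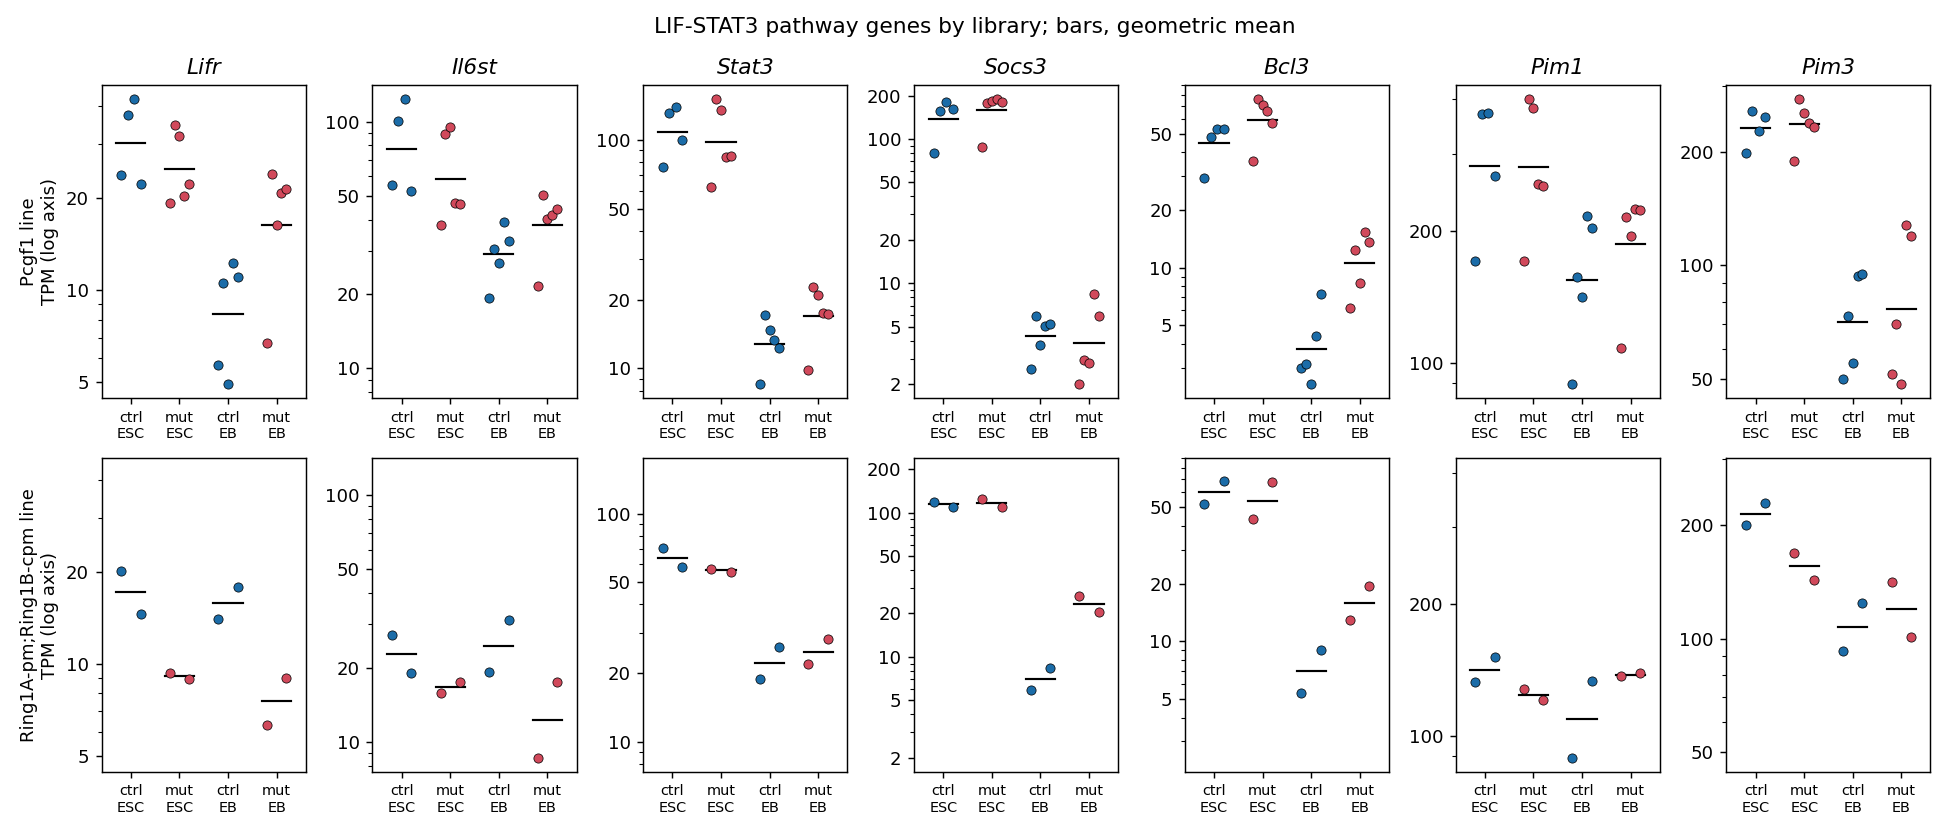
TPM (log axis) of the 7 genes in each library of the *Pcgf1* line (top) and the point-mutant line (bottom). Points are libraries in the order of their replicate numbers, blue for control and red for mutant, and bars are geometric means. *Socs3*, *Bcl3* and *Stat3* sit far lower in EBs than in ESCs in both lines, and *Socs3* is higher in mutant than in control EBs in the point-mutant line.

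By mean TPM, the order of levels in control ESCs of the *Pcgf1* line was *Pim1* (294), *Pim3* (232), *Socs3* (144), *Stat3* (112), *Il6st* (82.9), *Bcl3* (46.0) and *Lifr* (31.5), and the ranges of each pair of neighbours overlapped, except those of *Pim3* and *Socs3*. In control EBs it was *Pim1* (161), *Pim3* (73.4), *Il6st* (29.8), *Stat3* (13.2), *Lifr* (8.90), *Socs3* (4.51) and *Bcl3* (4.07). *Socs3* stood above *Stat3* and *Il6st* in ESCs and below them in EBs, where its range of 2.54 to 5.96 TPM overlapped those of *Lifr* and *Bcl3*. The ranges of *Pim1* and *Pim3* and those of *Stat3* and *Lifr* also overlapped in EBs, and those of the other neighbours did not.

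Markers of other cells and of handling moved with the stage in this line. The summed level of 10 fibroblast markers ranged from 203 to 292 TPM in control ESCs and from 25.3 to 48.7 TPM in control EBs, and 6 of the 10 fell, led by the collagen gene *Col1a1* (126 to 218 TPM, then 3.74 to 9.26 TPM). The fibroblast genes *Dcn* and *Thy1* rose, and *Lum* did not exceed 0.273 TPM in any control library. The summed level of 12 immediate early genes, which respond within minutes to growth factors and stress, ranged from 1529 to 2381 TPM in control ESCs and from 172 to 326 TPM in control EBs, and 11 of the 12 fell, led by *Fosb* and *Fos*. In bulk libraries, fewer cells of a type and less RNA per cell cannot be told apart, and the part of these markers in the fall of the 7 genes was not tested. In the point-mutant line the same sums were 41.3 to 45.9 and 32.4 to 36.3 TPM for fibroblast markers, and 294 to 501 and 270 to 308 TPM for immediate early genes. There, limma called 0 of the 10 fibroblast markers (1 lower and 1 higher at an unadjusted *p* under 0.05), and 1 of the 12 immediate early genes, *Ier3*, rose.

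In control cells of that point-mutant line, *Socs3*, *Bcl3*, *Stat3* and *Pim3* fell from ESC to EB as well. *Lifr*, *Il6st* and *Pim1* did not pass the test. The 4 calls of 7 stand against 4.73% of all 20279 genes tested in either direction, and 2% that were lower. *Socs3* went from 118 and 109.5 TPM to 5.85 and 8.40 TPM, a log2 fold change of -4.00 ± 0.21 (adjusted *p* = 0.000932). *Bcl3* went from 52.3 and 68.7 TPM to 5.38 and 9.02 TPM (-3.09 ± 0.34, adjusted *p* = 0.0047). *Stat3* went from 70.9 and 58.1 TPM to 18.9 and 26.02 TPM (-1.53 ± 0.21, adjusted *p* = 0.0103).

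*Pim3* was the weakest call, from 201 (replicate 1) and 229 TPM to 92.6 and 124 TPM (-0.998 ± 0.21, adjusted *p* = 0.0415). The receptor genes overlapped between stages. *Lifr* was at 20.2 and 14.6 TPM in ESCs and at 14.02 and 17.8 TPM in EBs, with a log2 difference of -0.12 and a 95% confidence interval of -0.73 to 0.50. *Il6st* was at 27.01 and 18.98 TPM in ESCs and at 19.2 and 31.3 TPM in EBs, with a difference of 0.11 (-0.76 to 0.99). With 2 libraries a group, leaving out any 1 of the 4 libraries compared left 1 or 2 of the 4 calls. *Socs3* was kept each time, with an adjusted *p* no higher than 0.0224 over all alternatives.

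In *Pcgf1*-KO cells, *Socs3*, *Stat3*, *Pim3* and *Bcl3* fell from ESC to EB (4 of 7, against 18.3% of all genes in either direction and 10.2% that were lower), while *Lifr*, *Il6st* and *Pim1* did not pass. *Socs3* was at 88.7, 178, 183, 189 and 179 TPM in KO ESCs. In KO EBs it was at 2.01, 2.94, 2.80, 8.43 and 5.95 TPM. The fall was -5.32 ± 0.36 on the log2 scale (adjusted *p* = 1.47e-08). *Stat3* fell by 2.52 ± 0.27 (adjusted *p* = 2.44e-06), *Bcl3* by 2.47 ± 0.30 (adjusted *p* = 1.29e-05) and *Pim3* by 1.62 ± 0.26 (adjusted *p* = 0.000164).

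*Lifr* was at 19.4, 34.7, 31.9, 20.3 and 22.3 TPM in KO ESCs. In KO EBs it was at 6.75, 23.97, 16.4, 20.8 and 21.5 TPM, and the groups overlapped (-0.60, 95% confidence interval -1.31 to 0.11). *Il6st* was at 38.2 to 94.7 TPM in KO ESCs and at 21.5 to 50.2 TPM in KO EBs, with a difference of -0.62 (-1.27 to 0.03). *Pim1* was at 171 to 399.6 TPM in KO ESCs and at 108 to 224 TPM in KO EBs, with a difference of -0.58 (-1.20 to 0.04). With the replicate block, *Il6st* (adjusted *p* = 0.0294) and *Pim1* (adjusted *p* = 0.00682) passed and *Lifr* did not (adjusted *p* = 0.0884).

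**Figure D2:**
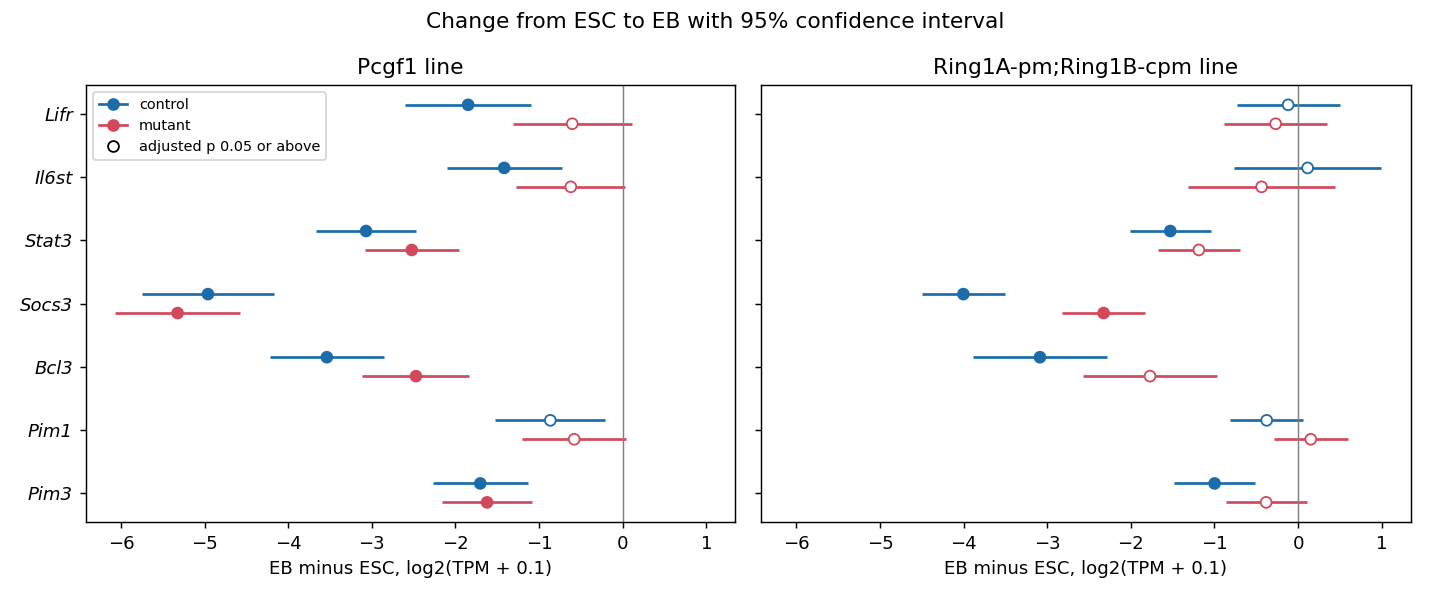
Difference between EB and ESC in log2(TPM + 0.1), with its 95% confidence interval, for control (blue) and mutant (red) cells of the *Pcgf1* line (left) and the point-mutant line (right). Filled points passed an adjusted *p* of 0.05. The interval of *Socs3* lies entirely below -1.8 in all 4 cases, and in the point-mutant line its control and mutant intervals do not overlap.

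Whether the change from ESC to EB differed between control and KO cells was tested as an interaction. It was called for 0 of the 7 genes and for 1 of all 20594 (0.00486%) by limma, and 2 of the 7 were at an unadjusted *p* under 0.05. The log2 change was higher in KO than in control cells by 1.24 ± 0.49 for *Lifr* (unadjusted *p* = 0.0212, adjusted *p* = 0.738) and by 1.07 ± 0.44 for *Bcl3* (unadjusted *p* = 0.0273, adjusted *p* = 0.756). For *Stat3* the difference was 0.55 and for *Socs3* -0.36 (95% confidence interval -1.45 to 0.73). The replicate block gave no call (adjusted *p* = 0.064 for *Stat3* and 0.0687 for *Bcl3*). Both passed with the library series as a block (adjusted *p* = 0.0397 and 0.0499), and with libraries averaged within series both had an adjusted *p* of 1.

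Between control and *Pcgf1*-KO ESCs, limma called 0 of the 7 genes, with 0 at an unadjusted *p* under 0.05, against 0.641% of all genes. The differences ran from -0.40 (*Il6st*) to 0.40 (*Bcl3*). The 95% confidence interval was -0.60 to 0.99 for *Socs3* and -1.03 to 0.48 for *Lifr*.

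In EBs, *Bcl3* was higher in *Pcgf1*-KO than in control cells (1 of 7 called, against 1.95% of all genes in either direction and 1.08% that were higher). It was at 6.15, 12.4, 8.30, 15.4 and 13.7 TPM in KO EBs, against the 2.47 to 7.30 TPM of control EBs. The groups overlapped by 1 library on each side, and KO was higher in all 5 same-numbered pairs and by 1.02 to 1.82 within the 3 series. The log2 difference was 1.47 ± 0.30 (adjusted *p* = 0.0154). This level in KO EBs was below every ESC library, where *Bcl3* was at 29.5 TPM or more. Without the KO EB library of replicate 4 or that of replicate 5 the adjusted *p* of *Bcl3* was 0.0568 and 0.0524. With replicates 4 and 5 averaged into 1 value it was 0.0619, and over all alternatives it ran from 0.000167 to 0.38.

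*Lifr* was higher in KO EBs in all 5 pairs too. The difference of 0.97 ± 0.34 did not pass (adjusted *p* = 0.188), and it passed with the replicate block (adjusted *p* = 0.0299) and without the KO EB library of replicate 1 (1.28, adjusted *p* = 0.0243). *Stat3* was also higher in 5 of 5 pairs, by 0.21 to 0.52, and passed with the replicate block (0.40 ± 0.09, adjusted *p* = 0.0109) and not without it (0.40 ± 0.27, adjusted *p* = 0.678). *Il6st* and *Pim1* were higher in all 5 pairs, by 0.09 to 0.72 and by 0.06 to 0.47, and passed neither test. *Socs3* was higher in 2 and lower in 3 of the 5 pairs (-0.17, 95% confidence interval -0.91 to 0.58).

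Beside these values, 3 of 4 markers of primitive endoderm, *Gata4*, *Gata6* and *Pdgfra*, were higher in KO than in control EBs, and so was 1 of 6 markers of naive pluripotency, *Nr5a2*. The summed fibroblast markers were at 8.39 to 15.04 TPM in KO EBs, under the 25.3 to 48.7 TPM of control EBs. Of the 10, 1 was called lower, *Thy1* (16.4 to 26.7 TPM in control and 2.49 to 3.59 TPM in KO EBs), and the difference of *Col1a1* was -0.12 (adjusted *p* = 0.979). The part of these markers in the differences of *Bcl3* and *Lifr* was not tested.

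**Figure D3:**
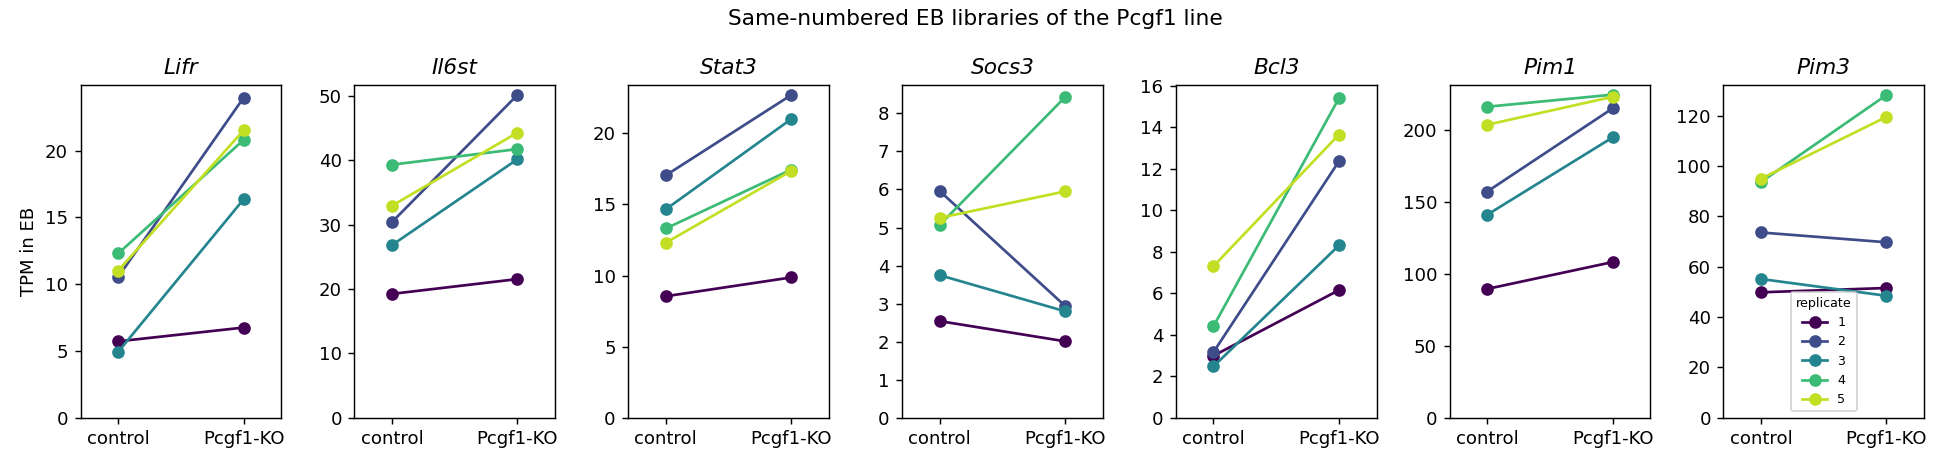
TPM of the 7 genes in EBs of the *Pcgf1* line, with a line for each same-numbered pair of a control and a *Pcgf1*-KO library, coloured by replicate. Every line rises for *Lifr*, *Il6st*, *Stat3*, *Bcl3* and *Pim1*, whereas *Socs3* and *Pim3* go both ways.

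In the point-mutant line, *Socs3* was the gene that differed between mutant and control EBs (1 of 7, against 4.53% of all genes in either direction and 3.76% that were higher). It was at 26.4 and 20.3 TPM in mutant EBs and at 5.85 and 8.40 TPM in control EBs, without overlap. The log2 difference was 1.71 ± 0.21 (adjusted *p* = 0.0121). In ESCs the gene was at 123 and 110.0 TPM in mutant and at 118 and 109.5 TPM in control cells, a difference of 0.03 ± 0.21, which with the median-of-ratios scaling became -0.11 ± 0.23. In mutant cells *Socs3* fell from ESC to EB by 2.33 ± 0.21 on the log2 scale (adjusted *p* = 0.0184), the 1 call among the 7 genes in that comparison (0.133% of all genes in either direction and 0.0838% that were lower). This call was lost when any 1 of the 4 mutant libraries was left out (adjusted *p* = 0.07 to 0.152), without a filter (0.059) and with only the groups compared (0.0778). The interaction for *Socs3* was 1.68 ± 0.30 (unadjusted *p* = 0.000643, adjusted *p* = 0.226). It was called for 0 of the 7 genes by limma, with 2 at an unadjusted *p* under 0.05, and for 0.00986% of all genes. All genes shifted by a median of 0.10 between mutant and control EBs and 0.12 between mutant and control ESCs in this line. With the median-of-ratios scaling the *Socs3* difference in EBs was 1.58 ± 0.23 (adjusted *p* = 0.0187). The EB difference lost its call when any 1 of the 4 EB libraries was left out (adjusted *p* = 0.0541 to 0.0802) and with only the groups compared (0.0667).

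*Bcl3* moved the same way in value, at 12.8 and 19.5 TPM in mutant EBs against 5.38 and 9.02 TPM in control EBs, but did not pass (1.17 ± 0.34, adjusted *p* = 0.105). It passed with the replicate block (adjusted *p* = 0.00822), although the numbers of this line were not taken to pair libraries. The receptor genes were lower in mutant EBs in value. *Lifr* was at 6.33 and 9.02 TPM against 14.02 and 17.8 TPM (-1.05 ± 0.26, adjusted *p* = 0.0697), and it passed with median-of-ratios scaling, quantile normalization or a filter on mean TPM (adjusted *p* = 0.0213 to 0.0472). *Il6st* was at 8.65 and 17.4 TPM against 19.2 and 31.3 TPM (-0.99 ± 0.38, adjusted *p* = 0.189). In ESCs, limma called 0 of the 7 genes between mutant and control (1 at an unadjusted *p* under 0.05, against 2.54% called over all genes). *Lifr*, that 1 gene, was at 9.34 and 8.90 TPM in mutant ESCs and at 20.2 and 14.6 TPM in control ESCs (-0.91 ± 0.26, adjusted *p* = 0.128).

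In the mutant EBs of this line, 3 of 4 markers of formative epiblast were lower than in control EBs, with *Fgf5* at 2.91 and 3.06 TPM against 22.7 and 44.0 TPM. Of 4 primitive endoderm markers, *Gata6* (1.61, adjusted *p* = 0.0257) and *Pdgfra* (1.93, adjusted *p* = 0.0291) were higher, and *Gata4* (1.69) and *Sox17* (2.15) did not pass. Of 6 naive markers, 2 were higher, and the summed fibroblast markers were at 76.2 to 78.0 TPM, above the 32.4 to 36.3 TPM of control EBs, with 3 of 10 called higher. The part of these in the higher *Socs3* was not tested.

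In the other 4 lines, the libraries whose label and file name give 1 stage showed the fall of *Socs3* and *Bcl3* in each line. *Socs3* was at 106 TPM or more in their 9 ESC libraries. In their EB libraries it was at 3.62 and 4.58 TPM in the *Pcgf2/4* line, 3.18 to 4.85 TPM in the *Pcgf3/5* line, 8.33 and 8.45 TPM in the *Pcgf6* line and 24.6 and 25.96 TPM in the *Ring1A/B* line. The log2 fold changes of *Socs3* were -4.71, -4.91, -3.66 and -2.60 in that order, with adjusted *p* of 0.000148, 1.35e-06, 0.00546 and 6.69e-06. The 2 EB libraries of the *Ring1A/B* line, with the smallest fall, are both from mutant cells and its 2 ESC libraries from control cells. Among these libraries, the stage and the loss of *Ring1B* cannot be told apart. In the 2 libraries labelled mutant ESC and named control EB, *Socs3* was at 5.55 and 7.69 TPM. The 2 labelled control EB and named mutant ESC held 139 and 154 TPM. These conflicting libraries were left out, and a difference by state was not tested. *Bcl3* fell by 3.08, 3.81, 3.46 and 1.58 on the log2 scale in the *Pcgf2/4*, *Pcgf3/5*, *Pcgf6* and *Ring1A/B* lines.

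*Stat3* fell in the *Ring1A/B* (-2.08), *Pcgf2/4* (-1.52) and *Pcgf3/5* (-1.46) lines, and in the *Pcgf6* line its difference of -0.84 did not pass (adjusted *p* = 0.0686). *Pim3* fell in the *Ring1A/B* (-1.74), *Pcgf2/4* (-1.05) and *Pcgf6* (-1.19) lines, and its difference in the *Pcgf3/5* line did not pass (-0.22, adjusted *p* = 0.131). *Il6st* and *Pim1* were called in opposite directions in different lines. *Il6st* fell in the *Ring1A/B* line (-1.48) and rose in the *Pcgf3/5* line, from 29.04 to 33.9 TPM in ESCs to 38.5 to 48.5 TPM in EBs (0.45 ± 0.10, adjusted *p* = 0.0102). *Pim1* rose in that line too, from 155 to 162 TPM to 184 to 262 TPM (0.44 ± 0.12, adjusted *p* = 0.0216), and fell in the *Ring1A/B*, *Pcgf2/4* and *Pcgf6* lines by 0.66, 1.15 and 1.80. *Lifr* fell in the *Ring1A/B* line (-1.68) and the *Pcgf3/5* line (-0.55), and in the *Pcgf6* line its ESC libraries were at 9.96 and 10.8 TPM and its EB libraries at 11.1 and 19.6 TPM. *Col1a1* fell in *Ring1A/B* (-1.92), *Pcgf2/4* (-2.63) and *Pcgf3/5* (-4.44) and not in *Pcgf6* (0.80, not called). *Fos* fell in *Ring1A/B* (-6.74) and *Pcgf2/4* (-0.92), and was not called in *Pcgf3/5* (0.47) and *Pcgf6* (-0.67). *Dcn* and the immediate early gene *Jun* rose in *Pcgf2/4*, *Pcgf3/5* and *Pcgf6*. The part of these markers in the differences between lines was not tested.

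In all, 7 of 7 genes were called in the *Ring1A/B* line (56% of all genes in either direction and 18.8% that were lower), 5 in *Pcgf2/4* (28%), 6 in *Pcgf3/5* (41.3%) and 4 in *Pcgf6* (16.2%). Leaving out any 1 library left 0 of the 5 calls in *Pcgf2/4* and 0 to 3 calls in *Pcgf6*, and in both lines the stage coincides with the replicate number. By file name, the ESC libraries compared in both lines are all controls and the EB libraries all mutants. The labels give both states in each stage. If the file names hold, stage and gene loss cannot be told apart there. With all 8 libraries of a line grouped by label, limma called 0 of 7 in each of the 4 lines, with 1 at an unadjusted *p* under 0.05 in the *Ring1A/B* line and 0 in the others. Over all genes, this grouping called 25.6% in the *Ring1A/B* line, 0.00519% in *Pcgf2/4*, 0.01% in *Pcgf3/5* and 1.7% in *Pcgf6*. In the *Pcgf2/4* line, for example, *Socs3* was at 5.77 and 7.20 TPM in the 2 libraries labelled ESC and named EB, and at 87.9 and 101.5 TPM in the 2 labelled EB and named ESC.

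**Figure D4:**
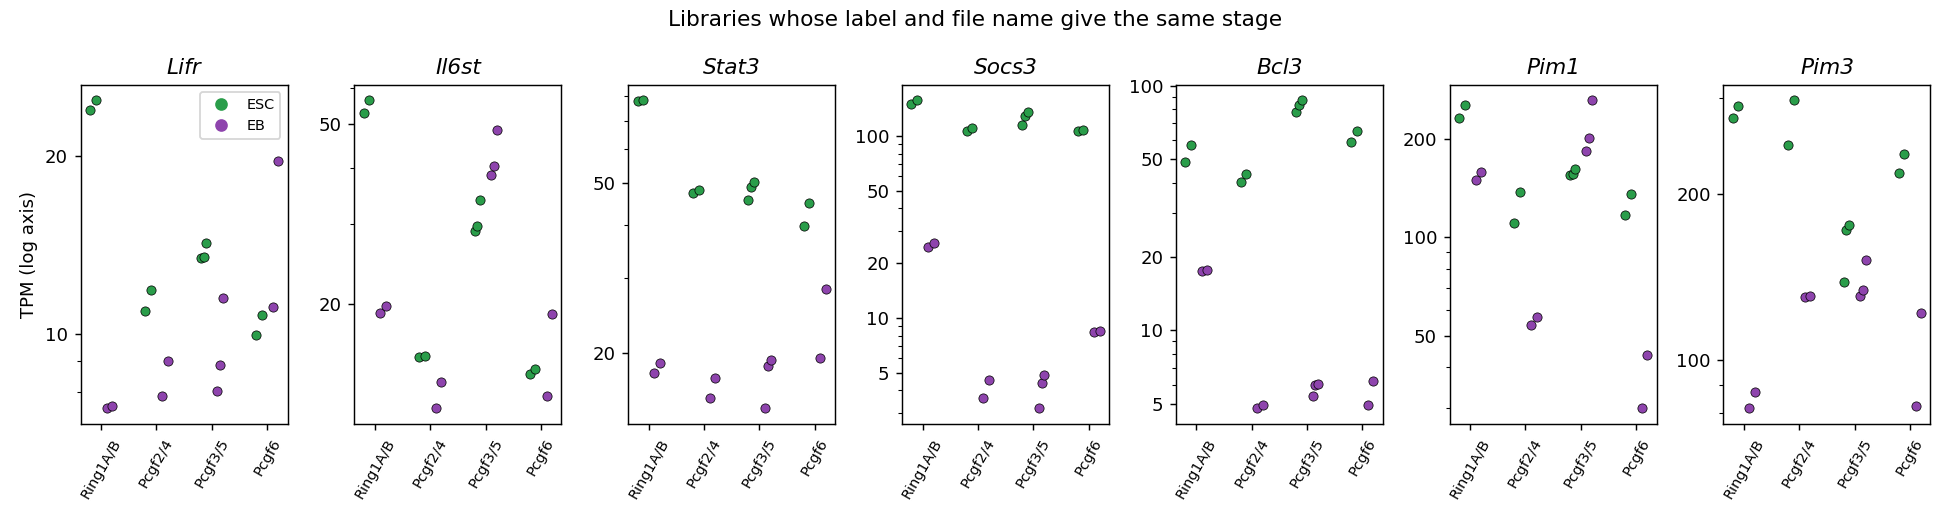
TPM (log axis) of the 7 genes in the 18 libraries, from 4 lines (*Ring1A/B*, *Pcgf2/4*, *Pcgf3/5*, *Pcgf6*), whose label and file name give 1 stage, green for ESC and purple for EB. *Socs3* and *Bcl3* are lower in EBs in each line, and *Il6st* and *Pim1* are higher in EBs of the *Pcgf3/5* line.

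Over all 45 libraries whose stage is not in doubt, 22 of ESCs and 23 of EBs, 3 of the 7 genes had EB levels wholly below their ESC levels, as 0.137% of all genes did. *Socs3* was at 79.7 TPM or more in ESCs and at 26.4 TPM or less in EBs, *Bcl3* at 29.5 TPM or more and 19.5 TPM or less, and *Stat3* at 39.6 TPM or more and 28.2 TPM or less. *Lifr*, *Il6st*, *Pim1* and *Pim3* overlapped. These levels are set side by side across lines whose tables may have been made separately.

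The rest of the pathway was described with lists of its ligands, receptors, kinases and inhibitors, in control cells of the *Pcgf1* line. Of 8 ligands of the IL-6 family, *Clcf1* and *Ctf1* rose and *Osm* fell, all of them at mean levels under 6 TPM, and *Lif* itself ranged from 2.89 to 4.58 TPM in ESCs and from 1.93 to 4.01 TPM in EBs, a difference that did not pass. Of 4 other receptors of the family, *Il6ra*, the IL-6 receptor (-3.40), and *Osmr*, that for oncostatin M (-2.83), fell, and *Cntfr*, that for ciliary neurotrophic factor, rose (2.19).

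Of 10 Janus kinases and other STATs, 6 fell and 0 rose (1 at an unadjusted *p* under 0.05, *Stat4*). The largest falls were those of *Jak3* (-3.70 ± 0.40), from 26.3 to 90.2 TPM to 2.89 to 5.97 TPM, and *Stat5a* (-1.98 ± 0.29). Of the kinases used by gp130, *Jak1* and *Jak2* fell by 0.70 and 0.81, and *Tyk2* did not pass (-0.93, adjusted *p* = 0.0797). In the point-mutant line *Jak3* alone of the 10 was called (-2.59 ± 0.40, adjusted *p* = 0.0149), as *Il6ra* was among the 4 receptors (-3.40 ± 0.36, adjusted *p* = 0.00398).

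Of 12 inhibitors other than *Socs3*, *Socs2* rose (1.09) and *Ptpn6*, which encodes the phosphatase SHP-1, fell (-0.53), and the lowest value, -0.70 for *Socs7*, did not pass. Of 8 genes of the MAPK and PI3K branch of gp130, *Mapk3* rose (0.73) and *Grb2* fell (-0.55). The medians of these lists were -0.24 and -0.22, against -0.01 for all genes.

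Of 10 other genes described as STAT3 targets in ESCs, 5 fell and 2 rose. *Klf4*, a naive pluripotency factor, fell furthest (-7.12 ± 0.62), from 655 to 1270.0 TPM to 3.54 to 12.4 TPM, followed by *Tfcp2l1* (-5.08 ± 0.36). *Myc* (2.97 ± 0.48) and *Gbx2* (1.60 ± 0.37) rose. In the point-mutant line, *Klf4* (-2.58 ± 0.26) and *Tfcp2l1* (-3.19 ± 0.32) fell as well, and *Myc* (-0.26) and *Gbx2* (-1.62) did not pass. Between *Pcgf1*-KO and control EBs, *Gbx2* (1.67, adjusted *p* = 0.0154), *Tfcp2l1* (1.52, adjusted *p* = 0.0237) and *Nr0b1* (1.26, adjusted *p* = 0.00492) were higher in KO. Over all genes, 1.08% were called higher there. The rest of this list did not pass, with *Klf4* at 1.86 (adjusted *p* = 0.124). The Pim family went apart: *Pim2* rose in control EBs of both lines, from 18.6 to 27.3 TPM to 147 to 719 TPM in the *Pcgf1* line (4.01 ± 0.65, adjusted *p* = 0.00017) and from 16.9 and 17.6 TPM to 63.3 and 141 TPM in the point-mutant line (2.45 ± 0.33, adjusted *p* = 0.00967), while *Pim3* fell in both. In mutant EBs *Pim2* was lower than in control EBs in the point-mutant line, at 24.4 and 27.1 TPM (-1.87 ± 0.33, adjusted *p* = 0.0269), and at 17.9 to 194 TPM in *Pcgf1*-KO EBs, a difference that did not pass (-2.36 ± 0.61, adjusted *p* = 0.0564).

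**Figure D5:**
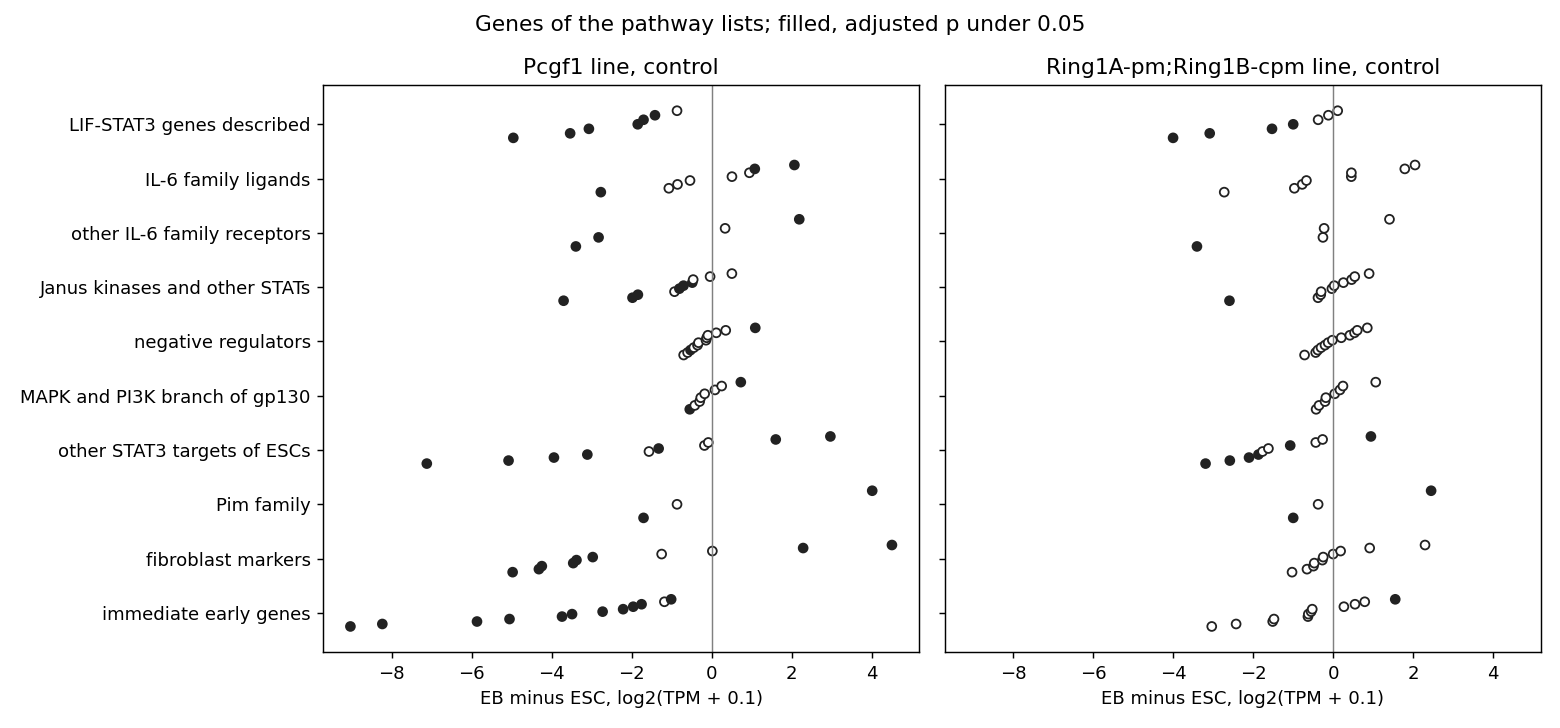
Difference between control EB and control ESC in log2(TPM + 0.1) for each gene of the lists, in the *Pcgf1* line (left) and the point-mutant line (right). Each point is a gene, filled where the adjusted *p* was under 0.05. Immediate early genes lie below 0 on the left (11 of 12 called lower) and on both sides of 0 on the right, and *Pim2* stands apart from *Pim1* and *Pim3* at 4.01 and 2.45.

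The profiles over the 27 libraries of the *Pcgf1* and point-mutant lines, centred in each line, were compared by Pearson's *r* among 10593 genes with a mean of at least 5 TPM. These are descriptions, since the libraries share stages, lines and series. The genes most like *Stat3* were *Jak3* (*r* = 0.982), *Rab11fip5* (0.976) and *Nfatc2ip* (0.975), and those most like *Socs3* were *Ckb*, *Plscr1* and *Atp2b4* (0.970 to 0.971). *Bcl3* was most like *Tfcp2l1* (0.967), *Ahnak* (0.966) and *Mapt* (0.964), and *Pim3* most like *Klf4*, *Mob3c* and *Zbtb44* (0.950 to 0.952). *Pim1* was most like *Itga5* (0.954), *Clcn2* (0.941) and *Stac2* (0.935). For *Lifr* these were *Camk1d*, *Tet2* and the other receptor gene, *Il6st* (0.920 to 0.925), and for *Il6st* they were *Chd2*, *Polh* and *Fanci* (0.927 to 0.933). Among the 7, *Socs3*, *Stat3*, *Bcl3* and *Pim3* had *r* of 0.896 to 0.956 with each other, and *Lifr* and *Il6st* had *r* of 0.626 and 0.612 with *Socs3*.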

How the data were processed

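RNA-seq of 59 libraries was used. The authors mapped reads to mm9 and counted them on exons with STAR (2.5.2b), and deposited TPM per gene symbol. The step from counts to TPM is not given in the sources used here. Every library sums to 1000000 TPM, so depth is unknown and no counting interval is given. The authors used DESeq2, which needs counts and was not used here.

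In R (4.3.3), log2(TPM + 0.1) was fitted per line with limma (3.58.1, trend) over its 4 groups, or over the 2 stages in the 4 lines with conflicting names, for genes above 0 TPM in at least 1 library. All 7 genes passed this filter in every line. Fold changes are on this scale, which understates those of low genes. Groups come from the labels. For the 1 *Pcgf1*-KO EB library numbered 4 in its title and 5 in its characteristics, the title was used. Same-numbered libraries of the *Pcgf1* line deviated together (*r* = 0.317 to 0.653 over 27 pairs), and the numbers of the labels were taken to pair them. Pairs with different numbers had *r* of -0.508 to 0.621 (108 pairs). Each number lies within 1 library series. S07 holds replicates 2 and 3, and S09 holds replicates 4 and 5, so some pairs with different numbers share a series. Whether libraries pair by number or by series was not tested. The main fit used no block, and the replicate block is an alternative. Named list genes are those with the highest and lowest fold changes in control cells of the *Pcgf1* line, or those a result turns on. The genes, lists and tests were chosen with earlier results of these data known. On simulated data for the control stages of the *Pcgf1* line (20594 genes), 34% of changes of 1 log2 unit and 72% of those of 2 were recovered. There, 50 genes were changed at each size, with independent noise and no series effect. In the real comparison 24.9% of genes were called, so these rates hold only for the simulated setting. Alternatives were other scalings, filters and pseudocounts, blocks and left-out libraries.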

Additional observations from a re-analysis of the deposited data

Results flagged for a closer look

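Of 28 sets of values (7 genes in the 4 groups of the *Pcgf1* line), 2 held a library far from the rest, where chance gives about 5%. *Socs3* was at 88.7 TPM in mutant ESC replicate 1, and the next library was at 178 TPM. *Pim1* was at 108 TPM in mutant EB replicate 1, and the next was at 195 TPM. Both are libraries of series S05.

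For 3 genes, all EB libraries lay below all ESC libraries in some lines and above them in another, and this difference between lines was not tested. Of all 21575 genes, 37.8% did so in some pair of the 6 lines, so that 3 of 7 is near the background. *Lifr* was lower in EBs in the *Pcgf1* (log2 fold change -1.85, control cells), *Ring1A/B* (-1.68), *Pcgf2/4* (-0.44) and *Pcgf3/5* (-0.55) lines and higher in the *Pcgf6* line (0.51). *Il6st* was lower in the *Pcgf1* (-1.42), *Ring1A/B* (-1.48) and *Pcgf2/4* (-0.28) lines and higher in the *Pcgf3/5* line (0.45). *Pim1* was lower in the *Ring1A/B* (-0.66), *Pcgf2/4* (-1.15) and *Pcgf6* (-1.80) lines and higher in the *Pcgf3/5* line (0.44). In these 4 lines the label and the file name differ in many libraries, and of the values given here those of *Lifr* in *Pcgf2/4* and *Pcgf6* and of *Il6st* in *Pcgf2/4* did not pass the test.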

How the results depend on the processing

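Each result was refitted with a pseudocount of 1, a filter on mean TPM or none, other scalings, blocks, fewer libraries and only the groups compared. Apart from left-out libraries, 687 of the single-gene values kept their direction and their side of the threshold, 27 gained and 34 lost the call, and 15 changed sign. Of these 15, 7 belong to differences between mutant and control ESCs that were not called: *Pim1* in the *Pcgf1* line (0.029 with median-of-ratios scaling, 0.023 with replicates 4 and 5 averaged, 0.005 with libraries averaged within series), *Pim3* there (-0.054 with the replicate block, -0.046 with the series block, -0.000 with libraries averaged within series) and *Socs3* in the point-mutant line (-0.111 with median-of-ratios scaling). The number of the 7 genes called moved by over 1.5 times as follows, and the cause was not tested. For *Pcgf1*-KO against control EBs (1 called) it was 3 with the replicate block, 3 with the library series as a block, and 0 with replicates 4 and 5 averaged, with libraries averaged within series (both chosen after seeing the data) or with only the groups compared. For the interaction in that line (0 called) it was 2 with the series as a block. In the point-mutant line, it was 2 without a filter for control EBs against ESCs (4 called). For mutant EBs against ESCs (1 called) it was 0 without a filter, 0 with only the groups compared and 2 with the replicate block. For mutant against control EBs (1 called) it was 2 with a filter on mean TPM, 2 with median-of-ratios scaling, 2 with quantile normalization, 2 with the replicate block and 0 with only the groups compared. The replicate numbers of that line were not taken to pair libraries, since it has 2 pairs (*r* = 0.106 to 0.381). Without a filter it was 3 in the *Pcgf2/4* line (5 called) and 2 in the *Pcgf6* line (4 called).

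With all 8 libraries grouped by label, it was 0 in each of the 4 lines (*Pcgf6*, *Pcgf3/5*, *Pcgf2/4* and *Ring1A/B*). The construction of this setting adds the 14 libraries whose file names give the other stage, the stage that *Fgf5* followed in them. There, the log2 differences that changed sign were those of *Socs3* (0.936) and *Bcl3* (0.343) in *Ring1A/B*, of *Pim1* (0.088) and *Bcl3* (0.216) in *Pcgf2/4*, and of *Stat3* (0.395, not called in the main setting), *Socs3* (0.359), *Pim1* (0.603) and *Bcl3* (0.118) in *Pcgf6*.

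Leaving out each library in turn gave 6 to 7 calls for the control stages of the *Pcgf1* line, 4 to 4 for KO EBs against ESCs and 0 to 2 for KO against control EBs. In the point-mutant line it gave 1 to 2 for control EBs against ESCs and 0 to 0 for mutant EBs against ESCs and against control EBs. It gave 6 to 7 in *Ring1A/B*, 0 to 0 in *Pcgf2/4*, 4 to 6 in *Pcgf3/5* and 0 to 3 in *Pcgf6*. Single-gene values that changed sign with a library left out were all uncalled. In the *Pcgf1* line, KO against control ESCs, they ran from -0.314 to 0.018 for *Stat3*, -0.066 to 0.404 for *Socs3*, -0.250 to 0.167 for *Pim1* and -0.041 to 0.113 for *Pim3*. For KO against control EBs they ran from -0.444 to 0.060 for *Socs3* and -0.071 to 0.280 for *Pim3*, and for the interaction from -0.104 to 0.247 for *Pim3*. For the point-mutant line, they ran from -0.352 to 0.115 for *Lifr* and -0.237 to 0.466 for *Il6st* between control stages, and from -0.937 to 0.065 for *Il6st* between mutant stages. Between mutant and control they ran from -0.050 to 0.116 for *Socs3* and -0.469 to 0.180 for *Bcl3* in ESCs, from -0.069 to 0.388 for *Stat3* and -0.084 to 0.397 for *Pim3* in EBs, and from -0.401 to 0.102 for the interaction of *Lifr*. In *Pcgf6*, *Il6st* ran from -0.183 to 0.419. A group left with 1 library was assumed to vary like the others. No replicate block could be fitted in *Pcgf2/4* and *Pcgf6*, where number and stage coincide. Depth is unknown, and with 2 libraries a group a missed call shows no absence of change.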
